A study of Homo sapiens with 6 samples.

Results

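The chaperones of the endoplasmic reticulum (ER) and the genes of the unfolded protein response formed a set of 37 genes, taken by name for their known roles in protein folding and ER stress. The count tables hold 58302 gene IDs, and all 37 were found among them. By role the set fell into 5 heat shock and lectin chaperones, 6 disulfide or proline isomerases with an oxidase, 7 J proteins and chaperone cofactors, 4 genes for the stress sensors and XBP1, 10 genes of ER-associated degradation, and 5 genes of protein translocation and export. Each role was assigned from background knowledge.

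Poly(A)-selected RNA was sequenced from A375 cells, a human melanoma line, in 2 groups of 3 libraries. Control cells carried an empty vector, and HMGB2OE cells carried a plasmid for stable overexpression of HMGB2, a DNA-bending chromatin protein. The stable lines of the study were made by lentiviral transduction, and no agent that causes ER stress is named for either group. Replicates were separate cell pellets, which the study's reporting form calls technical, so p-values cover the spread between pellets and not between independent transductions.

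Proteins that enter the secretory pathway are folded in the ER by chaperones such as HSPA5 (BiP), by lectins that bind glycoproteins, and by isomerases that form disulfide bonds. When unfolded proteins accumulate, 3 sensors in the ER membrane, IRE1α (gene ERN1), ATF6 and PERK (gene EIF2AK3), start the unfolded protein response. IRE1α splices XBP1 mRNA, and spliced XBP1 and cleaved ATF6 then induce chaperones and degradation factors, while PERK slows translation and allows synthesis of ATF4, which induces its own targets. Secretory cells and many melanomas are known to engage this response.

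The promoters of such genes are known to carry short elements through which XBP1 and ATF6 act. Windows of 250 bases before and 50 after the start were available from RefSeq (GRCh38.p14) for 33 of the 37 members, in 40 windows, since some members have several starts. The windows of PDIA3, DERL1, DERL3 and SEC24D were not used here. Both strands of each window were searched for the ER stress element (ERSE, CCAAT, 9 bases of any kind, then CCACG), for ERSE-II (ATTGG, 1 base, CCACG), for the unfolded protein response element (UPRE, TGACGTGG) and for the element of ATF4 known as CARE (TGATGNAAT). ERSE was found in 8 of the 33 members (24.2%) and in 25 of 27305 genes with a window (0.0916%), so these members made up 8 of the 25. ERSE-II was found in 3 members (9.09%) against 0.0696% of all genes, and UPRE in 2 members (6.06%) against 0.927%. No member had a match to CARE in this form, with T as its last base, which 1.22% of all genes had. Forms of CARE with another last base were not searched, so their absence from the members is not shown. A match is a description of letters and not of a bound site, and the members were chosen for a response these elements are known for.

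Promoter sequence is shown for HSPA5, the reference gene of the response, and for 4 of the 5 members that passed the main test described below, because genes with these elements differed in opposite directions. Each sequence runs from 250 bases before the RefSeq start to the base before the outermost annotated start, which leaves 211 to 250 bases, and reads 5′ to 3′ on the strand of its gene. For ERN1 the annotated starts reach beyond the window and none is printed. Capitals mark the fixed letters of a match on either strand. On GRCh38.p14 the sequences lie at chr9:125241383-125241593 (minus strand, HSPA5), chr19:12938359-12938577 (plus strand, CALR), chr3:51385041-51385290 (plus strand, MANF), chr22:28800598-28800819 (minus strand, XBP1) and chr16:56931892-56932141 (plus strand, HERPUD1).
HSPA5: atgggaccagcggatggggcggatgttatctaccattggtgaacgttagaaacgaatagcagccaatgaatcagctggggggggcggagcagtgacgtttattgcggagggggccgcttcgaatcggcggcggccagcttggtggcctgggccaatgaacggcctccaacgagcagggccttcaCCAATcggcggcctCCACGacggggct
CALR: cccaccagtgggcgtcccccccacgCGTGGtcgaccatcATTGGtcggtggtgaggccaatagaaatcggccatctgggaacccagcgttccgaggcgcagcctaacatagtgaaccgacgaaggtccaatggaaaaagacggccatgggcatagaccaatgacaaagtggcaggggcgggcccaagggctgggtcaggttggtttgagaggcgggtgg
MANF: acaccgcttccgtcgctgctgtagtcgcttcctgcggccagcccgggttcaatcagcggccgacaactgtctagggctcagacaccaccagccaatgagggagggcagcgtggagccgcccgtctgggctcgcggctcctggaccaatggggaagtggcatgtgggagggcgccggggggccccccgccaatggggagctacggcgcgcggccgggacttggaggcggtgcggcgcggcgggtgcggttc
XBP1: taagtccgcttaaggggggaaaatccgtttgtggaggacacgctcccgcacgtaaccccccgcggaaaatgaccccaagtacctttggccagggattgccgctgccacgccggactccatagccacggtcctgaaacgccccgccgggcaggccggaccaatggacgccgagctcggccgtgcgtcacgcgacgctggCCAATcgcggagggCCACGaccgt
HERPUD1: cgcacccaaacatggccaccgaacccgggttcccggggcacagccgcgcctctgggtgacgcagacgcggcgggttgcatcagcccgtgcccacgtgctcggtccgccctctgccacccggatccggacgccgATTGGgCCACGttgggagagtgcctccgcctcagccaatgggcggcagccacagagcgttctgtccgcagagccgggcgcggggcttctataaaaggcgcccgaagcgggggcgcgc

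HSPA5 held an ERSE at 66 to 48 bases before its start, and XBP1 held one at 52 to 34 bases, at the upstream of its 2 annotated starts. In CALR the ERSE lay on the opposite strand at 225 to 207 bases. HERPUD1 held an ERSE-II at 117 to 107 bases. The windows of MANF and ERN1 had no match to the 4 motifs. The middle bases differed between genes, as the other ERSE matches show, each written here in the direction of the motif.
HSP90B1, upstream match: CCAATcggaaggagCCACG
HSP90B1, downstream match: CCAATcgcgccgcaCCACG
CANX: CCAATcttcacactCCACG
PDIA6: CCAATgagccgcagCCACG
ERO1B: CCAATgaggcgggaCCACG
CRELD2: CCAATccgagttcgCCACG

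HYOU1 held 2 copies of ERSE-II with the same middle base (ATTGGaCCACG), 1 of them overlapping a UPRE, and SDF2L1 held 1 (ATTGGtCCACG). DNAJC10 had a UPRE alone. An ERSE or ERSE-II was thus present in 11 of 33 members (33.3%) and in 44 of all genes with a window (0.161%).

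**Figure D1:**
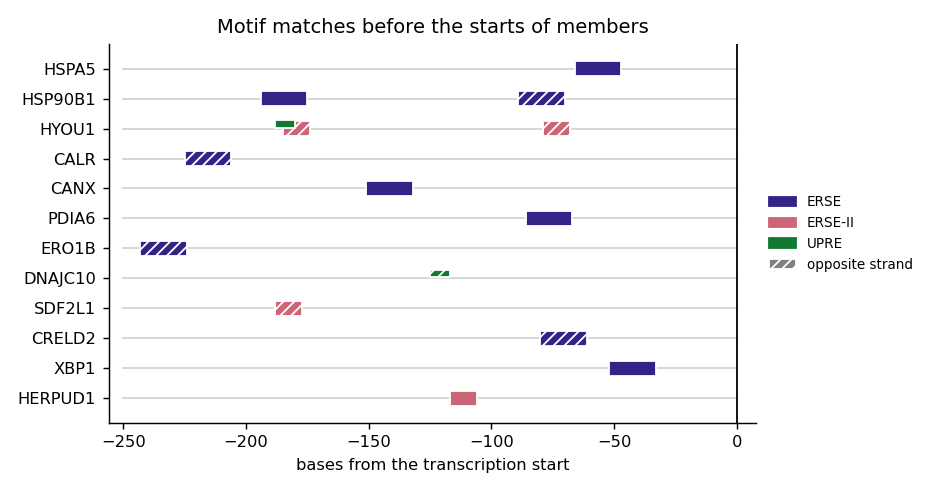
Positions of the motif matches before the transcription start (x axis, bases, with the start at 0) for the 12 members that had 1. Colours mark the motif and hatching the opposite strand. For CANX, which has several starts, the match is placed by the nearest start that lies wholly downstream of it. The matches of HSPA5 and XBP1 lie within 66 bases of the start, and those of CALR and ERO1B beyond 200.

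Reads assigned to genes numbered between 45925053 and 56755212 per library, with no difference between groups beyond the spread (exact permutation p = 0.8, two-sided, where 3 against 3 cannot go below 0.1). Multimapped reads made up 2.58% to 10.6%, highest in HMGB2OE replicate 3. HMGB2 had normalized counts (reads divided by the size factor of the library) of 7250, 7729 and 7562 in the empty vector libraries and 15095, 16848 and 14609 in the HMGB2OE libraries, which fits the labels (log2 fold change 1.05, standard error (SE) 0.10, DESeq2 adjusted p = 4.4e-22). Of 11 melanoma and melanocyte markers, PRAME, S100B and MITF were well detected, MLANA, TYR and DCT were near 0, and SOX10 was at 0 in the counts used but had 28863 to 56464 reads per library in the columns that count each strand by itself (strand-wise columns). Of 10 markers of other cell types, the leukocyte gene PTPRC was at 0 in all 6 libraries, and CD3E, CD14 and ALB were near 0. KRT18, COL1A1, PDGFRB and EPCAM averaged 12388, 2272, 793.6 and 317.5 normalized counts in controls, and KRT5 and PECAM1 averaged 98.5 and 37.4. In bulk RNA, fewer cells of a kind and less RNA per cell cannot be told apart.

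The third replicates stood apart from the others within both groups. Set against replicates 1 and 2 of its own group, HMGB2OE replicate 3 deviated in the same direction as empty vector replicate 3 for 28 of 36 members (77.8%), against 75.2% of 16692 genes with a mean of at least 10 normalized counts. The median size of the deviation over members was 0.23 (log2) in empty vector replicate 3 and 0.12 in HMGB2OE replicate 3. Empty vector replicate 3 was the lowest of the 6 libraries for 13 of the 36 members, and for 23.7% of those 16692 genes. Its deviation from replicates 1 and 2 was -0.91 (log2) for ERN1, -0.75 for OS9, -0.67 for SYVN1, -0.63 for HYOU1 and -0.38 for HSPA5, while SEC61B, SPCS3 and DERL1 were above replicates 1 and 2, by 0.30, 0.29 and 0.29. What set these libraries apart is not given in the labels. Results are therefore given both for the comparison of groups alone, which follows the study's methods, and with a term for the third replicates in the same model. The term rests on these counts and not on a label, so its adjusted p cannot be taken at face value.

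**Figure D2:**
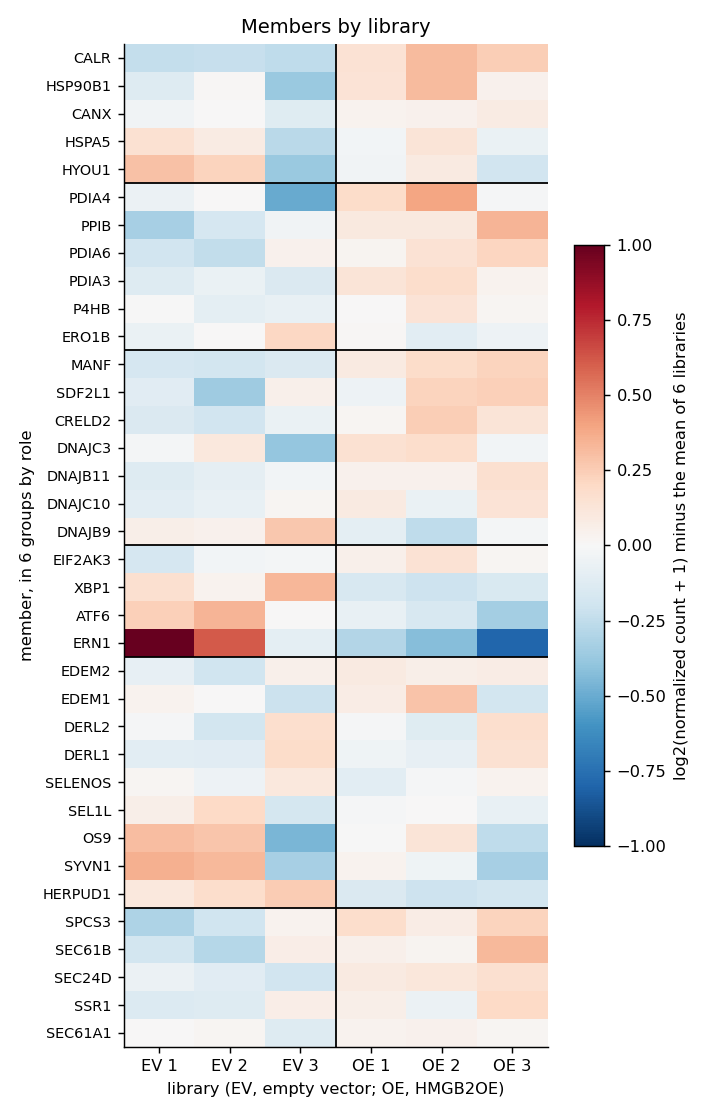
Level of each of 36 members (rows, in 6 groups by role) in each library (columns), as log2 of the normalized count plus 1 minus the mean of the 6 libraries. Within the empty vector group, replicate 3 differs from replicates 1 and 2 for ERN1, OS9, SYVN1 and HYOU1, with deviations of -0.91 to -0.63.

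In cells overexpressing HMGB2, 5 members passed the test. CALR and MANF rose, and ERN1, XBP1 and HERPUD1 fell. These were 2 higher (5.56% of the 36 members with an adjusted p) and 3 lower (8.33%), beside 2.29% of 18836 genes tested called higher and 2.64% called lower. Among the 7252 genes with a mean of at least 1000 normalized counts, the range in which 34 of the members lay, 2.05% were called higher and 3.64% lower. The other 31 members with an adjusted p had log2 fold changes between -0.39 and 0.37 and did not pass. At an unadjusted p under 0.05 there were 15 members, 10 higher (27.8%) and 5 lower (13.9%). The shares of all genes at that p were 7.48% higher and 8.01% lower at a mean of at least 10 normalized counts, and 6.98% and 8.98% at 1000. With edgeR's quasi-likelihood test only CALR passed.

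Over the 36 members the log2 fold change came to above 0 for 25 and below 0 for 11. Its median over members was 0.12, and over all genes with an adjusted p it was 0.002716. Groups did not overlap for 14 members with a higher mean in HMGB2OE (38.9%) and for 5 with a lower mean (13.9%). Among genes with a mean of at least 1000 normalized counts those shares were 10.2% and 12.2%, and among genes with 10 or more they were 11.4% and 11.4%. The higher side of the members was thus above its background and the lower side was near it. The members were chosen with earlier results of these data known, so this comparison is a description and not independent support.

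With the term for the third replicates, 12 members were called higher (33.3%) and 6 lower (16.7%). The backgrounds of that fit were 8.71% higher and 8.61% lower over all genes tested, and 12.3% and 12.5% at a mean of at least 1000 normalized counts. The 12 were CALR, HSP90B1, PDIA3, PDIA4, PDIA6, PPIB, MANF, SDF2L1, CRELD2, SEC61B, SPCS3 and SEC24D. Most of them have roles in folding, bonding or translocating proteins, as do most members of the set. The 6 were ERN1, ATF6, XBP1, DNAJB9, HERPUD1 and SYVN1.

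**Figure D3:**
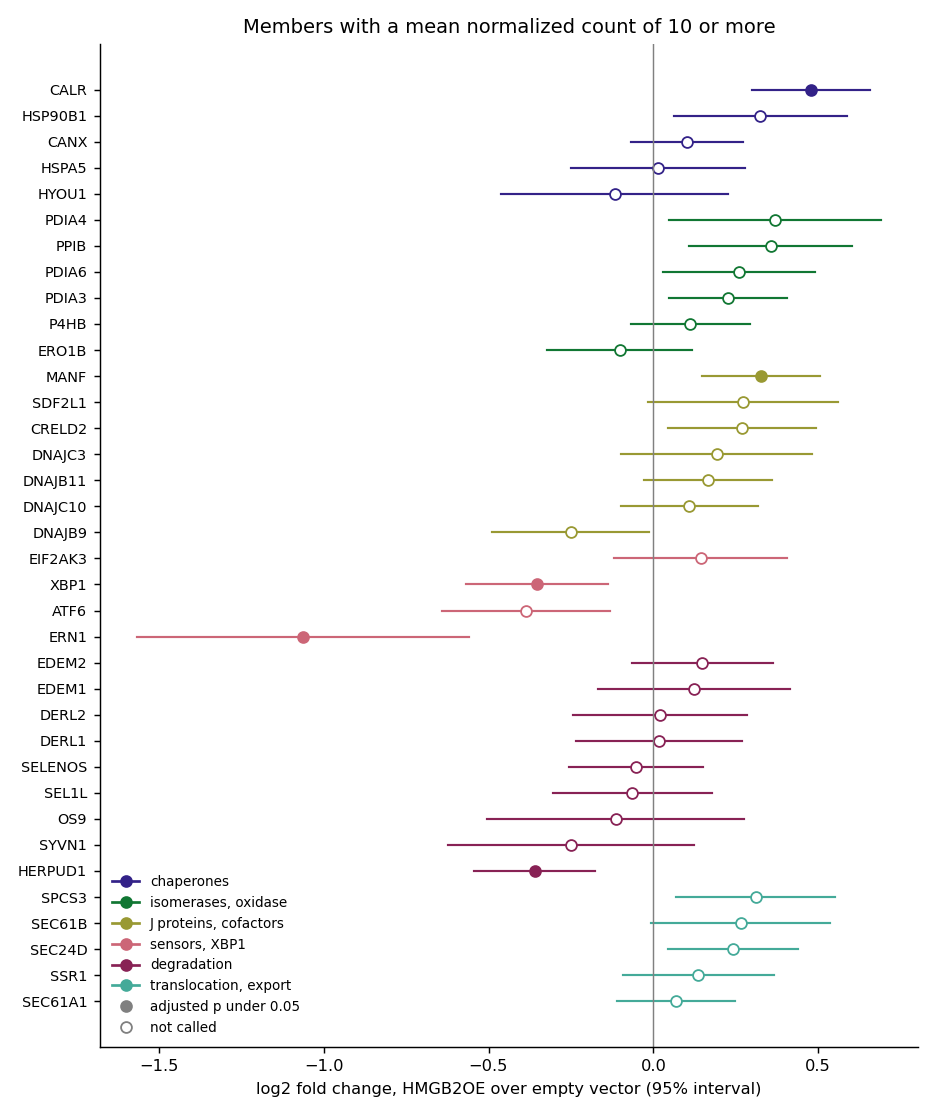
Log2 fold change of HMGB2OE over empty vector (x axis) for the 36 members with a mean of at least 10 normalized counts, in 6 groups by role (colours). Lines are 95% intervals of the DESeq2 fit, and filled points mark the 5 members with an adjusted p under 0.05. ERN1 lies farthest from 0, at -1.06.

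The sensors and XBP1 had a median log2 fold change of -0.37 over 4 genes, the lowest of the 6 roles. ERN1 (chr17:64039080-64130819 on hg38, minus strand) encodes IRE1α, the kinase and RNase that splices XBP1. Its normalized counts were 750.6, 574 and 349.9 in the empty vector libraries and 305.2, 279.7 and 216.1 in the HMGB2OE libraries. Every HMGB2OE library was below every control, though control replicate 3 was closer to the HMGB2OE libraries than to control replicate 1. ERN1 fell by 1.06 on the log2 scale (SE 0.26, DESeq2 adjusted p = 0.001757). Without empty vector replicate 1 the difference was -0.79 and was not called (adjusted p = 0.07678).

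XBP1 (chr22:28794555-28800597 on hg38, minus strand), the transcription factor of the IRE1α branch, was counted over all its reads, which do not tell the spliced from the unspliced form. Its normalized counts were 11057, 10112 and 12420 with the empty vector and 8867, 8548 and 8872 in HMGB2OE cells. The HMGB2OE libraries lay close together and all below the controls. XBP1 fell by 0.35 on the log2 scale (SE 0.11, DESeq2 adjusted p = 0.03175). Leaving out 1 library ended the call for empty vector replicate 1 and for each HMGB2OE replicate, with adjusted p of 0.2478, 0.2818, 0.2961 and 0.2098 in that order.

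ATF6 (chr1:161766298-161977574 on hg38, plus strand) encodes the sensor that is cleaved in the Golgi to release a transcription factor. Normalized counts of 6023, 6463 and 5131 in control libraries stood against 4866, 4582 and 4032 in HMGB2OE libraries. The groups did not overlap, and replicate 3 was the lowest library of each group. The log2 fold change came to -0.39 (SE 0.13), which just missed the threshold (DESeq2 adjusted p = 0.0572). With the term for the third replicates it was called lower (adjusted p = 1.44e-07).

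EIF2AK3 (chr2:88556741-88691518 on hg38, minus strand), which encodes PERK, was the exception among the sensors. Normalized counts were 362.7, 399.5 and 401.4 in controls and 422.4, 451.1 and 411.9 in HMGB2OE libraries. The groups were separate by a small margin, and the log2 fold change of 0.14 (SE 0.13, 95% interval -0.12 to 0.41) was not called (DESeq2 adjusted p = 0.7384). ERN1 and EIF2AK3 were the members of lowest level apart from DERL3. Levels are also given as TPM, the reads per kilobase of exon scaled to a common sum over genes in each library. By TPM, empty vector cells held 2.14 ± 0.843 (SD, n = 3) for ERN1 and 1.36 ± 0.0582 for EIF2AK3. ATF6 was at 30.0 ± 4.56 and XBP1 at 268 ± 19.0.

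**Figure D4:**
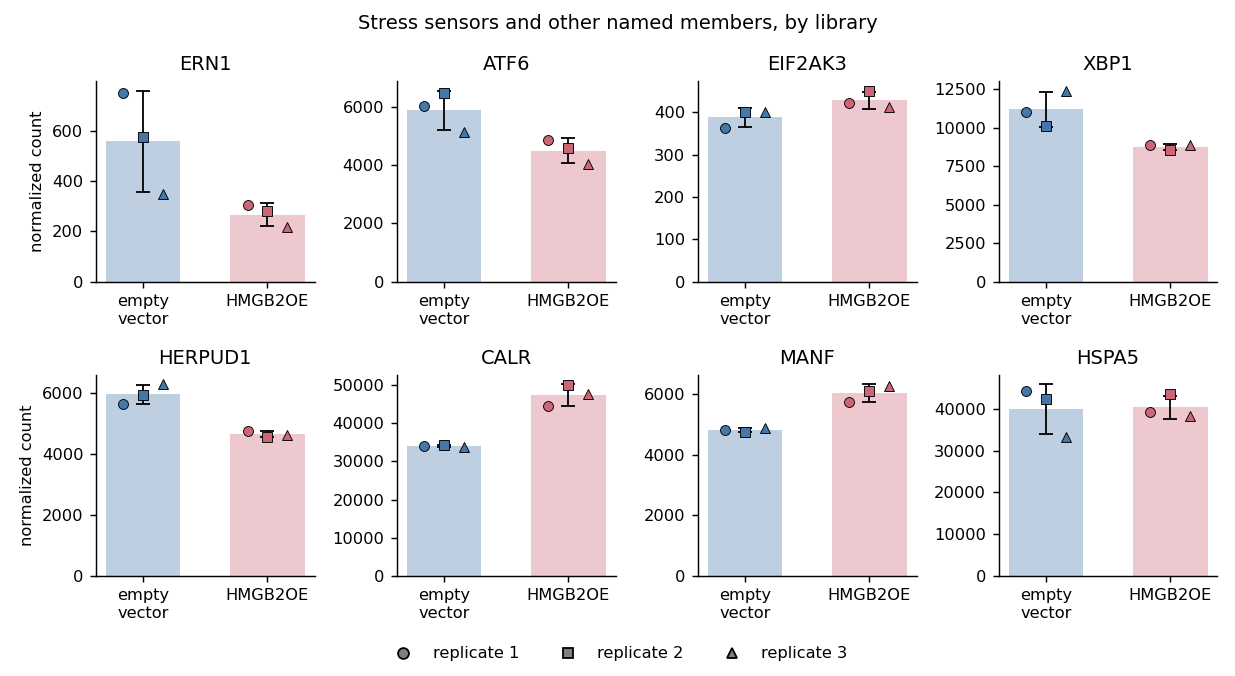
Normalized counts (y axis, from 0) of the 3 sensors, XBP1, HERPUD1, CALR, MANF and HSPA5 in the 6 libraries. Bars and error bars are the mean and SD of 3 libraries, and marker shapes give the replicate number. The groups are separate for every panel but HSPA5, where control replicate 3 lies at 33228 and replicate 1 at 44363.

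Among the heat shock and lectin chaperones, CALR (chr19:12938578-12944489 on hg38, plus strand) differed most. It encodes calreticulin, a calcium-binding lectin of the ER lumen, and was the most abundant member in both groups by TPM (884 ± 44.9 and 1208 ± 108, SD, n = 3). Normalized counts were 34107, 34334 and 33772 in the empty vector libraries and 44521, 50109 and 47750 in the HMGB2OE libraries. The controls lay within a narrow range, and every HMGB2OE library was above them. CALR rose by 0.48 on the log2 scale (SE 0.09, 1.39-fold, DESeq2 adjusted p = 1.82e-05) and was called in all 15 alternatives run.

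HSPA5 (chr9:125234853-125241382 on hg38, minus strand), which encodes BiP and is the usual marker of the response, did not follow CALR. Normalized counts of 44363, 42303 and 33228 with the empty vector stood beside 39195, 43617 and 38245 in HMGB2OE cells. The groups overlapped, all 3 HMGB2OE libraries lay within the range of the controls, and replicate 3 was the lowest library of each group. The log2 fold change came to 0.01 (SE 0.13, 95% interval -0.25 to 0.28, DESeq2 adjusted p = 0.9882), and it was -0.10 without empty vector replicate 3.

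HSP90B1 (chr12:103930107-103953931 on hg38, plus strand), the HSP90 of the ER known as GRP94, had normalized counts of 26468, 29136 and 22346 in controls and 31842, 35983 and 29806 in HMGB2OE libraries. All HMGB2OE libraries were above all controls, and replicate 3 was again lowest in each group. The log2 fold change of 0.32 (SE 0.13) was not called (DESeq2 adjusted p = 0.1746) and was called with the term for the third replicates (0.33, adjusted p = 2.98e-05). CANX, the membrane-bound lectin, was at 0.10 with no overlap, and HYOU1, a nucleotide exchange factor for HSPA5, was at -0.12 with overlap. Neither passed in either fit. HYOU1 was called lower without empty vector replicate 3 (-0.30, DESeq2 adjusted p = 0.01809) and with replicates 1 and 2 alone (-0.23, adjusted p = 0.006183).

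The isomerases and the oxidase form and shuffle disulfide bonds, except PPIB, which turns proline bonds. Their median log2 fold change came to 0.24 over 6 genes. Of the 6, none passed DESeq2 or edgeR, 4 were higher at an unadjusted p under 0.05 and 4 were called higher with the term for the third replicates. Among all genes with a mean of at least 1000 normalized counts, those shares were 6.98% and 12.3%. PDIA4 (chr7:149003062-149028662 on hg38, minus strand) had normalized counts of 6274, 6560 and 4612 in controls and 7446, 8611 and 6490 in HMGB2OE libraries, where HMGB2OE replicate 3 fell just below control replicate 2. Its log2 fold change came to 0.37 (SE 0.16, DESeq2 adjusted p = 0.2305), and with the term 0.38 (adjusted p = 6.37e-06).

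PPIB (chr15:64155740-64163134 on hg38, minus strand) had normalized counts of 4792, 5372 and 5898 in controls and 6460, 6455 and 7643 in HMGB2OE libraries. Here replicate 3 was the highest library of each group, and the groups did not overlap. The log2 fold change came to 0.36 (SE 0.13, DESeq2 adjusted p = 0.07987), and with the term 0.35 (adjusted p = 1.96e-06). These counts kept 24% of the reads that PPIB had in the strand-wise columns, since its exons overlap those of SNX22 on the other strand. PDIA6 and PDIA3 were at 0.26 and 0.23 and kept 69.0% and 72.6% of theirs. P4HB, the founding disulfide isomerase, was at 0.11 and the oxidase ERO1B at -0.10.

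J proteins bring substrates to HSPA5, and the cofactors of this group act beside it. Their median log2 fold change came to 0.19 over 7 genes, with 6 above 0. MANF (chr3:51385291-51389397 on hg38, plus strand), a secreted cofactor of HSPA5, had normalized counts of 4817, 4760 and 4894 in controls and 5738, 6123 and 6291 in HMGB2OE libraries. The controls were within a narrow range and all HMGB2OE libraries were above them. MANF rose by 0.33 on the log2 scale (SE 0.09, DESeq2 adjusted p = 0.01084). Leaving out any 1 library except empty vector replicate 3 ended the call, with adjusted p between 0.1578 and 0.2894, while the log2 fold change stayed between 0.30 and 0.36.

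DNAJB9 (chr7:108569867-108574850 on hg38, plus strand), a J protein known as a target of XBP1 and a repressor of IRE1α, was the 1 member of this group below 0. Normalized counts of 2051, 2032 and 2375 in controls stood against 1840, 1649 and 1937 in HMGB2OE libraries. The groups did not overlap. The log2 fold change came to -0.25 (SE 0.12, DESeq2 adjusted p = 0.3035), and with the term for the third replicates -0.25 (adjusted p = 0.01195).

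SDF2L1 (chr22:21642302-21644299 on hg38, plus strand), a partner of J proteins, had normalized counts of 1370, 1157 and 1534 in controls and 1424, 1731 and 1748 in HMGB2OE libraries. HMGB2OE replicate 1 lay within the range of the controls. The log2 fold change came to 0.27 (SE 0.15, DESeq2 adjusted p = 0.3987), and with the term 0.28 (adjusted p = 0.0353). CRELD2 was at 0.27, DNAJC3 at 0.19, DNAJB11 at 0.17 and DNAJC10 at 0.11, none of them called in the main test.

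The genes of ER-associated degradation, which retrieve misfolded proteins and send them to the proteasome, had a median log2 fold change of -0.05 over 9 genes, with 4 above and 5 below 0. HERPUD1 (chr16:56932142-56944864 on hg38, plus strand), a membrane scaffold of the degradation complex, was the 1 that passed. Its normalized counts were 5636, 5941 and 6273 in the empty vector libraries and 4736, 4546 and 4621 in the HMGB2OE libraries. The HMGB2OE libraries were close together and all below the controls. HERPUD1 fell by 0.36 on the log2 scale (SE 0.09, DESeq2 adjusted p = 0.004913). Leaving out any 1 library except empty vector replicate 3 ended the call, with adjusted p between 0.06244 and 0.1948.

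The ubiquitin ligase SYVN1 was at -0.25 and was not called in the main test, while it was called lower with the term for the third replicates (DESeq2 adjusted p = 0.04489). Without empty vector replicate 3 its log2 fold change moved to -0.44 and was called (adjusted p = 0.002779), and with replicates 1 and 2 alone it was -0.34 (adjusted p = 0.001021). Its adaptor SEL1L was at -0.06, the lectin OS9 at -0.11 and SELENOS at -0.05. The mannosidase-like EDEM1 and EDEM2 were at 0.12 and 0.15, and the channel proteins DERL1 and DERL2 at 0.02 each. OS9 kept 57.2% of its strand-wise reads and shared 14.1% of its 50-base words with other genes. It was called neither in the main test nor with the term. Without empty vector replicate 3 it was called lower (-0.32, DESeq2 adjusted p = 0.02499), as with replicates 1 and 2 alone (-0.23, adjusted p = 0.01508). DERL3, the 37th member, had 0 to 4 reads per library in the counts used and 51 to 99 in the strand-wise columns, since 77.0% of its exon bases are overlapped by SMARCB1, and it received no adjusted p.

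Translocation and export had 5 genes, all above 0, with a median log2 fold change of 0.24. SPCS3, a subunit of signal peptidase, was at 0.31, the translocon subunit SEC61B at 0.27, SEC24D of the COPII coat at 0.24, SSR1 at 0.14 and SEC61A1 at 0.07. None passed DESeq2 or edgeR. At an unadjusted p under 0.05, 2 were higher, and 3 did not overlap between groups. SPCS3, SEC61B and SEC24D were called higher with the term for the third replicates. Among all genes with a mean of at least 1000 normalized counts, 6.98% were higher at that unadjusted p. On the higher side 10.2% of those genes did not overlap, and the term called 12.3% higher. SPCS3 kept 63.7% of its strand-wise reads, and with those columns its log2 fold change was 0.24 (DESeq2 adjusted p = 0.3657).

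Members with an ERSE or ERSE-II were found on both sides. CALR rose, and HSP90B1, PDIA6, SDF2L1 and CRELD2, not called in the main test, had log2 fold changes of 0.26 to 0.32. XBP1 and HERPUD1 fell. The other 4, HSPA5, CANX, ERO1B and HYOU1, lay between -0.12 and 0.10. MANF and ERN1, called in opposite directions, had no match in their windows.

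The remainder of the pathway was read from 66 other ER genes for folding, degradation, translocation and sensing, from 12 genes known as output of PERK through ATF4, and from 18 genes of the cytosolic heat shock response, the counterpart of these chaperones outside the ER. These lists too were chosen with earlier results of these data known. Of the 66 other ER genes, DESeq2 and edgeR each called 0 higher and 1 lower, with 7 higher and 3 lower at an unadjusted p under 0.05, and the median log2 fold change was 0.05. The 1 was RHBDD1, an ER rhomboid protease, which fell by 0.67 (DESeq2 adjusted p = 2.64e-08) and is named here after its value was seen. With the term for the third replicates 12 of the 66 were called higher and 5 lower. Without empty vector replicate 3 alone the counts were 10 and 5, beside 1334 higher and 1520 lower of all 16062 genes tested there. KDELR3, a receptor that returns ER proteins from the Golgi, was the largest of the 12 at 0.38 (adjusted p = 9.39e-05), also named after its value was seen. Groups did not overlap for 8 of the 66 on the higher side and 3 on the lower. Over all genes tested, 2.29% were called higher and 2.64% lower in the main test, and 8.71% and 8.61% with the term. At a mean of at least 1000 normalized counts the term gave 12.3% and 12.5%. At a mean of at least 10, 7.48% were higher and 8.01% lower at an unadjusted p under 0.05, and 11.4% on each side did not overlap.

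Genes of the PERK branch were mostly lower in HMGB2OE cells. Of the 12, 10 fell and 0 rose by DESeq2 (11 and 0 at an unadjusted p under 0.05), with a median log2 fold change of -0.70, and for 11 every HMGB2OE library was below every control. Over all genes 2.64% were called lower, 8.01% were lower at that unadjusted p, and 11.4% did not overlap on the lower side. NUPR1, a stress-induced chromatin protein, averaged 493 ± 236 normalized counts in controls (SD, n = 3) and 94.9 ± 25.6 in HMGB2OE cells and fell by 2.38 on the log2 scale (DESeq2 adjusted p = 2.61e-09). Its control libraries ranged from 223.2 to 662.7. TRIB3, a pseudokinase induced by ATF4, went from 27835 ± 2253 to 11676 ± 2076 and fell by 1.253 (adjusted p = 1.86e-14).

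ASNS, asparagine synthetase, fell by 1.37 and PPP1R15A, which restores translation, fell by 1.23. SESN2 and DDIT3 (CHOP) each fell by 0.76, where DDIT3 kept 23.2% of its strand-wise reads. ATF4 itself went from 31086 ± 1108 to 23171 ± 980.8 normalized counts and fell by 0.42 (DESeq2 adjusted p = 0.000194). DDIT4, at -0.35, and VLDLR, at 0.04, did not pass. ATF4 is also induced through kinases other than PERK, and which kinase acted was not measured. With edgeR 9 of the 12 were lower and 0 higher, and with the term for the third replicates 11 and 0. Over all genes edgeR called 255 of 16754 lower and 215 higher, and the term called 8.61% lower and 8.71% higher.

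In the cytosolic heat shock list 6 of 18 genes rose and 0 fell by DESeq2 (8 and 0 at an unadjusted p under 0.05), with a median log2 fold change of 0.24, and 10 had every HMGB2OE library above every control. Over all genes 2.29% were called higher, 7.48% were higher at that unadjusted p, and 11.4% did not overlap on the higher side. HSPA1A and HSPA1B, near-identical copies of the inducible HSP70 whose reads are hard to assign, rose by 0.78 and 0.76 (DESeq2 adjusted p of 0.00034 and 5.73e-05). HSPA8, the constitutive cytosolic HSP70, went from 56398 ± 9389 to 82382 ± 9200 normalized counts and rose by 0.55 (adjusted p = 0.007012). HSP90AA1 rose by 0.45, beside 0.32 for its ER relative HSP90B1, which was not called. With edgeR 4 of the 18 were higher and 0 lower, beside 215 and 255 of all 16754 genes tested. With the term for the third replicates 9 were higher and 1 lower, beside 8.71% and 8.61% of all genes tested. The 1 lower was HSF1, the main transcription factor of this response, at -0.25 (DESeq2 adjusted p = 0.007666), against -0.26 and no call in the main test. The count of 6 dropped to 2 without empty vector replicate 1 and to 3 without HMGB2OE replicate 2 or without HMGB2OE replicate 3.

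Of the 11 melanoma and melanocyte markers, 0 rose and 2 fell: NGFR fell by 1.06 and AXL fell by 0.69 (DESeq2 adjusted p of 2.98e-07 and 8.58e-05), both known from less differentiated melanoma cells. The summed normalized count of the 7 markers with a mean of 10 or more ranged from 40454 to 48929 in controls and from 32298 to 35799 in HMGB2OE libraries, most of it AXL. With the term for the third replicates the counts were again 0 and 2. Of 10 markers of other cell types none was called by DESeq2 or by edgeR in the comparison of groups alone and 1 was higher at an unadjusted p under 0.05 (COL1A1). The sum over 6 of them, most of it the keratin KRT18, ranged from 14472 to 17023 in controls and from 16114 to 16965 in HMGB2OE libraries. With the term for the third replicates 2 of the 10 were called higher, the fibroblast collagen COL1A1 (log2 fold change 0.55, DESeq2 adjusted p = 7.89e-07) and the basal keratin KRT5 (3.42, adjusted p = 0.01951), and 2 were called without empty vector replicate 3. KRT5 had normalized counts of 5.05, 11.5 and 279 in controls and 249.8, 199.9 and 289.2 in HMGB2OE libraries, so that control replicate 3 lay among the HMGB2OE libraries. The part of such shifts in the values of the ER genes was not tested.

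**Figure D5:**
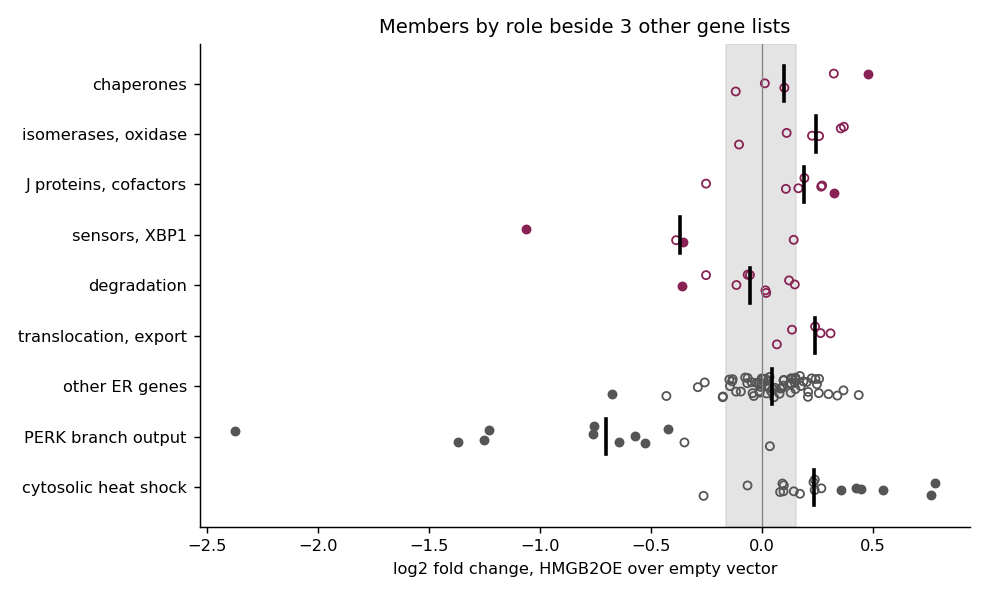
Log2 fold change of HMGB2OE over empty vector (x axis) for each gene with an adjusted p, for the members by role and for 3 other lists (rows). Filled points passed the test, vertical bars are medians, and the grey band spans the quartiles of all genes with a mean of at least 10 normalized counts (-0.16 to 0.15). The PERK branch lies to the left, with a median of -0.70, and the sensors with XBP1 at -0.37.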

How the data were processed

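The authors used bcl2fastq 2.20 for demultiplexing, FastQC for read quality, Trimmomatic for trimming and STAR for alignment to hg38. The STAR version and annotation release are not given in the sources used here. The deposited values are raw read counts per gene, not normalized, with 58302 gene IDs and 4 summary lines per library, which were left out. The first count column, which takes reads from either strand and sets aside those in opposite-strand overlaps, was used. Symbols and hg38 positions came from GENCODE 44 (57532 IDs matched), and promoter windows from RefSeq.

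Groups were compared with DESeq2 1.42.0 (R 4.3.3, Wald test, group alone, as in the study), calling a Benjamini-Hochberg adjusted p under 0.05. Fold changes are unshrunken. The fit was tested on simulated counts. Named in full are the called members, members called and at least 1.25-fold changed with a term for the third replicates, the sensors and marker genes of the response, and from other lists the 10 called genes of largest change with a mean of at least 50 normalized counts. HSPA8, HSP90AA1, HSF1, ATF4, DDIT4, VLDLR, COL1A1 and KRT5 were added after their values were seen. Members and lists were chosen with earlier results of these data known. Alternatives were edgeR 4.0.16, TMM factors, a filter of 10 counts in 3 libraries, no independent filtering, strand-wise columns, a replicate block, the term for the third replicates, replicates 1 and 2 alone, a correction for GC content and length (mgcv 1.9.3), and leaving out each library.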

Additional observations from a re-analysis of the deposited data

How the results depend on the processing

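The 2 members called higher and 3 called lower kept those counts with TMM factors and with a filter on low counts, and were 2 and 2 without independent filtering and 2 and 4 with the strand-wise columns. They were 1 and 0 with edgeR, 12 and 6 with the term for the third replicates, 11 and 7 with replicates 1 and 2 alone, and 6 and 5 with the correction for GC content and length. Leaving out 1 library gave 1 to 8 higher and 0 to 7 lower, with 8 and 7 without empty vector replicate 3 and 1 and 0 without empty vector replicate 1. The cause was not tested. The median log2 fold change of members was 0.12, 0.10 (0.1030) with the strand-wise columns, 0.09 (0.0929) with the GC and length correction, and 0.0989 to 0.1293 with 1 library left out. HMGB2 was called in every alternative run.

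Replicate numbers did not pair the samples by the check made (correlations of same-numbered deviations 0.0906, 0.142 and 0.349, not all over 0.1). The replicate block gave 9 members higher and 5 lower. Replicate 3 of each group correlated best with its own number, and replicates 1 and 2 did not both do so.

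Over all genes, 432 were called higher and 498 lower, against 215 and 255 with edgeR, 886 and 940 with the replicate block, 1374 and 1359 with the term for the third replicates, 1203 and 1418 with replicates 1 and 2 alone, 609 and 777 with the GC and length correction, and 155 to 1334 and 208 to 1520 with 1 library left out.

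Among 553 comparisons of single members with their main value, 14 in 6 members changed sign, none in a called member and none called under the alternative. DERL1 was at -0.0011 with the strand-wise columns and -0.0045 with the GC and length correction, DERL2 at -0.0386 with that correction, and HSPA5 at -0.0650 with replicates 1 and 2 alone. With 1 library left out, log2 fold changes ranged from -0.2975 to 0.0015 for HYOU1, -0.0577 to 0.1211 for DERL1, -0.323 to 0.0091 for OS9, -0.1578 to 0.0231 for SEL1L, -0.0645 to 0.1131 for DERL2 and -0.1023 to 0.0929 for HSPA5.

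Of the called members, CALR was called in 15 of 15 alternatives, ERN1 in 13, and MANF, XBP1 and HERPUD1 in 9 each. ATF6, not called, passed in 6. In edgeR the adjusted p was 0.07143 for ERN1, 0.07328 for MANF, 0.05845 for HERPUD1 and 0.09703 for XBP1. No alternative varied depth. Of the 37 members, 34 had a mean of at least 1000 normalized counts. Overlap with genes on the other strand limited DERL3 and PPIB most among the members, and 3 libraries per group limit every test.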
